A study of Drosophila melanogaster with 6 samples.

Results

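The posterior compartment epithelium of the Drosophila melanogaster foreleg was taken from single-cell RNA-seq of the first tarsal segment of pupae. It comprised 6356 of 71346 barcodes kept over 6 libraries. A barcode was kept if it had at least 500 detected genes and at most 10% of its unique molecular identifiers (UMIs) from mitochondrial genes. It was called posterior if it had at least 1 UMI of at least 2 of en, inv and hh and no UMI of ci, of the hemocyte gene Hml, of the neuronal gene elav, of the glial gene repo or of the muscle precursor gene twi. For comparison, 17740 anterior barcodes of the same libraries had at least 1 UMI of ci and none of the other 7 genes. These 8 genes therefore chose the barcodes, and their levels in the gates are given below as a description with no test.

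Segments of a leg are divided into compartments of separate lineage. The homeodomain proteins engrailed (en) and invected (inv) are selector proteins of the posterior compartment, where they activate the secreted ligand hedgehog (hh) and repress cubitus interruptus (ci), the transcription factor of the Hedgehog pathway. Anterior cells receive Hedgehog through patched (ptc), and those next to the boundary express ptc, decapentaplegic (dpp, mainly dorsal) and wingless (wg, ventral) in answer. On the anterior side of the first tarsal segment of the male foreleg, the sex comb forms under doublesex (dsx), the sex-specific transcription factor, and Sex combs reduced (Scr), the Hox gene of the foreleg.

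One library was made per group, from 65 to 70 pooled segments. Pupae aged 12 h after puparium formation, female and male, 20 h male and 36 h male were of genotype dsx-GAL4 > UAS-mCherry, the 16 h males of dsx-GAL4 > UAS-GFP, and the 24 h females of the line RAL-517, with no driver or reporter in its label. Age and genotype therefore partly coincide, and females stand only at 12 and 24 h. Segments were dissociated for 35 minutes, and those of 36 h for 45 minutes, so age and dissociation time cannot be told apart at 36 h. Values for the 6 libraries are given below from youngest to oldest: the 12 h females come before the 12 h males, then the 16 h males, the 20 h males, the 24 h females and last the 36 h males.

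The posterior gate held 1192, 1142, 719, 867, 1807 and 629 barcodes, and the anterior gate 2441, 3012, 3704, 3071, 3926 and 1586. Posterior barcodes made up 10.0%, 9.81%, 6.08%, 8.17%, 13% and 5.49% of the kept barcodes. Median depth per barcode ranged over libraries from 5035 to 12202.5 UMIs in the posterior gate and from 5747.5 to 13007.5 UMIs in the anterior gate, lowest in both at 16 h. Since a call needs UMIs of 2 genes, the share moves with depth. Kept barcodes were also thinned to 2000 UMIs before gating, and the 1429, 2341, 1191, 1491, 0 and 704 with fewer UMIs were left out. The posterior shares of all thinned barcodes were then 3.50%, 3.94%, 2.10%, 1.98%, 3.44% and 1.5%. By this measure the 12 h libraries and the 24 h female library had the higher shares and the 36 h library the lowest. As a share of posterior plus anterior barcodes, the thinned values were 18.5%, 19.3%, 9.70%, 11.2%, 17.8% and 19.1%, lowest at 16 h. Thinning evens out depth but not the levels of en, inv, hh and ci per barcode, on which the calls also rest. In posterior barcodes gated without en, en had 182 CPM in the 12 h males and 50.4 CPM in the 36 h males. How far the shares reflect the size of the compartment was not tested. Pairs of libraries shared 29 to 54 cell barcodes, at most 2 of them posterior in both.

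Barcodes within the gate differed in how many of the 3 genes they showed. All of en, inv and hh had a UMI in 538, 574, 114, 224, 802 and 109 barcodes, between 15.9% and 50.3% of the gate. Their levels, as CPM (counts per 1e6 UMIs summed over the gate), were 164, 190, 171, 92.1, 166 and 86.9 for en and 106, 99.9, 143, 77.1, 97.3 and 82.9 for inv. For hh they were 200, 256, 242, 263, 195 and 235 CPM. Because these genes chose the barcodes, no course with age is read from these levels. With each gene left out of the gate in turn, as given below, en was lowest at 20 and 36 h (64.8 and 50.4 CPM) and hh at 16 h (133 CPM).

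To see whether the label holds for a gene that did not choose the barcodes, each gate gene was also left out of the gate in turn, and the genes were again described with no test. In barcodes with both inv and hh, en stood at 153, 182, 93.8, 64.8, 157 and 50.4 CPM, against 8.23, 6.78, 5.65, 4.47, 5.01 and 4.01 CPM in anterior barcodes gated without en. In barcodes with en and hh, inv stood at 89.8, 86.1, 69.8, 53.2, 85.4 and 46.7 CPM, against 12.0, 9.30, 9.19, 6.38, 5.14 and 5.15 CPM. In barcodes with en and inv, hh stood at 192, 247, 133, 228, 182 and 190 CPM, against 8.62, 5.48, 10.5, 11, 6.11 and 8.75 CPM. Each left-out gene was thus many times higher in the posterior barcodes of every library. The converse held for ci, which stood at 21.9, 19.2, 59.1, 20.4, 23.0 and 11.4 CPM in barcodes with all 3 posterior genes, against 150, 158, 169, 141, 158 and 46.6 CPM in barcodes with none.

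**Figure D1:**
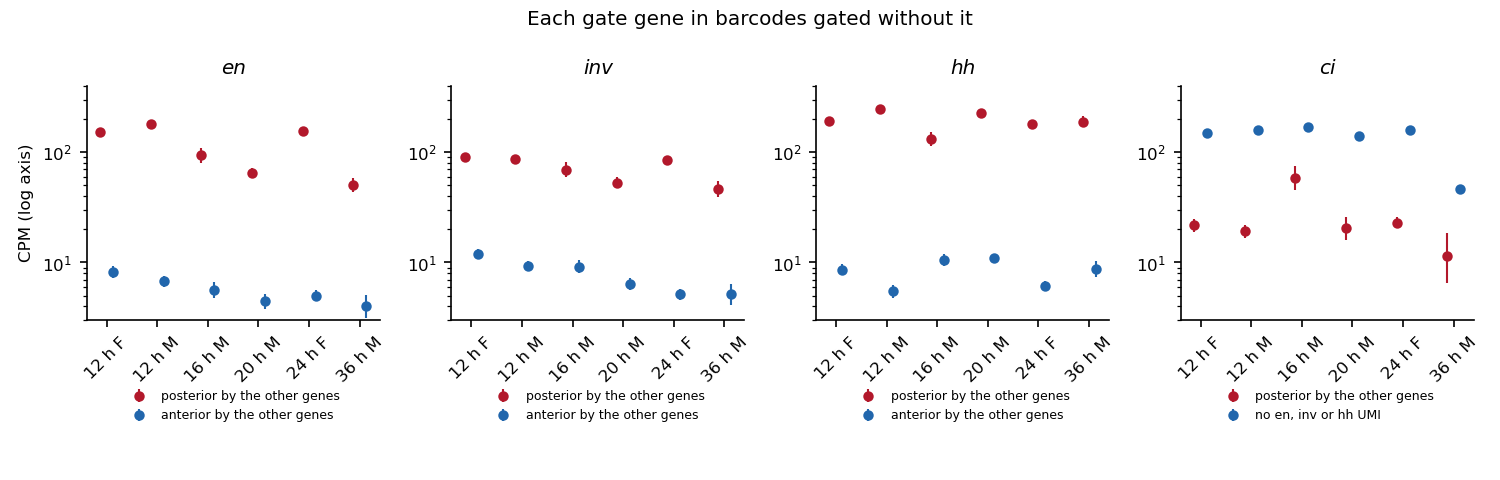
CPM (log axis) of each gate gene in barcodes gated without it, by library (F female, M male); points are the sum over barcodes and bars the exact Poisson 95% interval, which covers counting error only. Posterior points of en, inv and hh lie above the anterior points in all 6 libraries, and those of ci, in barcodes with all 3 posterior genes, below.

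The summed level of 8 epithelial genes ranged over libraries from 1897 to 3502 CPM in posterior barcodes and from 1611 to 2943 CPM in anterior barcodes. No sum for barcodes of another cell type stands beside these, so they describe the gates and do not by themselves show epithelial identity. The summed level of 6 hemocyte markers ranged from 4.16 to 11.1 CPM in posterior barcodes, against 10.8 to 61.9 CPM in anterior barcodes, and none of the 6 was at 0 in all libraries. Summed levels of 5 muscle markers ranged from 197 to 431 CPM in posterior barcodes, against 184 to 390 CPM in anterior barcodes, and those of 5 glial markers from 194 to 290 CPM, against 180 to 298 CPM. For 3 tracheal markers they were 69.0 to 186 CPM, against 85.9 to 171 CPM. Those of 8 sensory organ markers were 27.6 to 128 CPM, against 36.6 to 90.9 CPM. For 5 neuronal markers they were 16.4 to 168 CPM, against 15.8 to 103 CPM, and for 3 tendon markers 8.94 to 125 CPM, against 6.97 to 63.2 CPM. The sensory organ, neuronal and tendon sums were highest at 36 h in both gates, and higher in the posterior gate at that age. The anterior gate asks for a single ci UMI, and ci had a UMI in 37.1% to 75.1% of the 105 to 413 hemocyte barcodes per library (UMIs of at least 2 of Hml, NimC1 and Pxn), a cell type that should lack it. At least 2 of en, inv and hh had a UMI in 1.90% to 10.4% of the same barcodes, so hemocyte barcodes met the ci criterion far more often than the posterior one in each library. The compartment comparison is therefore given both with all gated barcodes and without those that had a UMI of NimC1, Pxn, srp, Him, zfh1 or moody. This marker set was chosen after these markers had been seen to be lower in the posterior gate. Without the marked barcodes, muscle sums still ranged from 182 to 411 CPM in posterior and 129 to 328 CPM in anterior barcodes. Glial sums ranged from 195 to 292 CPM and 176 to 308 CPM. How far these 2 sums reflect muscle and glial cells was not tested.

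For the comparison, UMIs were summed per gate and library and tested with edgeR's quasi-likelihood test, with the library as a block, so that the p-values measure the spread of the posterior to anterior ratio over 6 libraries of differing age, sex and genotype. Of 8388 genes tested, 421 were higher (5.02%) and 635 lower (7.57%) in posterior barcodes at an adjusted p under 0.05. Without the marked barcodes, 175 of 8063 genes were higher (2.17%) and 254 lower (3.15%). These shares are the background for every count of list members given below, and no list was tested against them. The 2 fits shared 156 higher and 176 lower genes. A further pair of genes, picked out after their values were seen, passed in both with opposite signs: Cp1, a cathepsin-type protease, had log2 fold changes of −0.68 with all barcodes and 0.12 without the marked ones, and Gbp1, a growth-blocking peptide, −1.19 and 0.82. The median log2 fold change of all genes tested was 0.02. Leaving out any 1 of the 5 libraries from 12 to 24 h gave 236 to 258 higher genes, and leaving out the 36 h library 522.

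**Figure D2:**
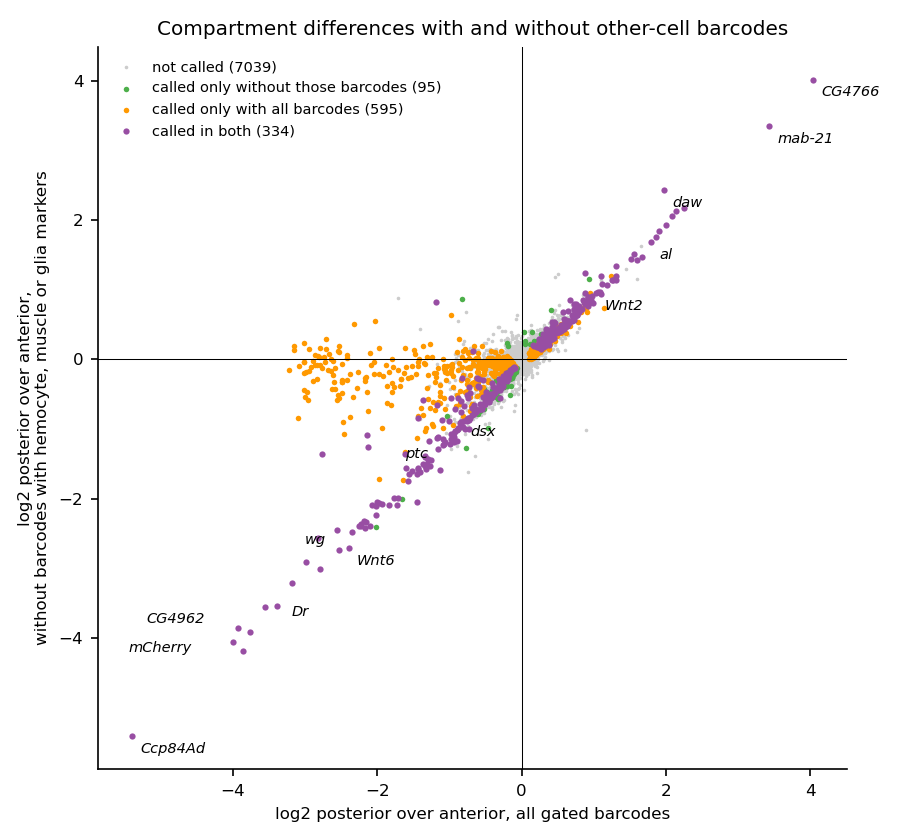
Log2 posterior over anterior for each gene with all gated barcodes (x axis) and without barcodes with a UMI of NimC1, Pxn, srp, Him, zfh1 or moody (y axis); colours give the edgeR calls at an adjusted p under 0.05. Of 8063 genes tested in both, 334 were called in both, and of the 595 called only with all barcodes a group at x below −1 lies near 0 on the y axis.

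Genes of the Hedgehog response were lower in posterior barcodes. Of 4 tested targets of the pathway, ptc, dpp and wg fell and none rose, with a list median log2 fold change of −0.97 (−1.03 without the marked barcodes). The receptor ptc (FBgn0003892, BDGP6 2R:8649649-8665223) had 67.7, 28.1, 38.3, 58.3, 55.6 and 57.5 CPM in posterior barcodes, against 139, 62.3, 75.7, 118, 117 and 129 CPM in anterior barcodes. Its posterior level was close to 2-fold lower in every library, and the log2 fold change was −1.09 ± 0.04 (SE, 6 libraries, adjusted p = 3.6e-06, edgeR). A ptc UMI was seen in 16.0% to 33.7% of posterior barcodes, below the 27.4% to 55.0% of hemocyte barcodes in each library, at hemocyte median depths of 7369 to 15999 UMIs. Per UMI, hemocyte barcodes had 81.6, 49.2, 44.6, 45.6, 59.1 and 38.4 CPM of ptc. The posterior level was above this at 20 and 36 h and below it in the other 4 libraries.

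The ligand dpp had 16.0, 10.2, 19.9, 18.6, 21.1 and 19.4 CPM in posterior barcodes, against 28.6, 25.7, 29.4, 35.6, 37.2 and 25.7 CPM in anterior barcodes. The posterior range lay wholly below the anterior one, and the log2 fold change was −0.85 ± 0.10 (SE, adjusted p = 0.001). The ligand wg (FBgn0284084, 2L:7307159-7316265) had 7.88, 5.68, 6.38, 3.79, 4.40 and 3.02 CPM in posterior barcodes, against 30.4, 33.0, 28.3, 32.0, 34.0 and 15.3 CPM in anterior barcodes. The ranges did not overlap, and wg fell by 2.54 on the log2 scale (SE 0.14, adjusted p = 4e-05).

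Both ptc and wg also differed across the edge of the gate, which the rule sets at 2 of the 3 posterior genes. These values are a description. Barcodes with 1 posterior gene and no ci UMI had median depths of 5458, 2428, 4581, 9004.5, 10409 and 7622 UMIs, below those of the posterior gate in each library. At lower depth a ci UMI is missed more often, so this class can hold anterior barcodes. Its make-up was not tested. In the 24 h female library, barcodes with 1, 2 and 3 of the posterior genes and no ci UMI had 161, 75.8 and 32.2 CPM of ptc and 22.2, 7.02 and 1.34 CPM of wg. In the 12 h female library they had 168, 95.1 and 43.7 CPM of ptc and 20.2, 13 and 3.40 CPM of wg. In the 12 h male library wg had 20.6, 5.46 and 5.85 CPM, with no further decline from 2 to 3 genes, and at 36 h ptc had 76.2, 57.9 and 55.9 CPM. In all 6 libraries both genes were highest in barcodes with 1 posterior gene. By contrast, mab-21 was lowest there in all 6, at 74.1, 126 and 160 CPM in the 12 h female library, 85.1, 165 and 147 CPM in the 12 h male library, 166, 225 and 222 CPM in the 24 h female library and 38.2, 47.9 and 59.8 CPM at 36 h. From 2 to 3 genes it was higher in 4 libraries and lower in the 12 h male and 24 h female ones.

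On the ligand-sending and reception side, changes other than that of ptc were small. Of 5 tested genes of Hedgehog release, only dlp rose; it encodes a glypican of the cell surface that binds Hedgehog and Wnt ligands. It had 79.8 to 140 CPM in posterior barcodes, against 60.5 to 98.2 CPM in anterior barcodes, higher in 6 of 6 libraries (log2 fold change 0.52 ± 0.07 SE, adjusted p = 0.0013). Among 5 genes of reception ptc fell, as given above. The co-receptor boi rose (0.57 ± 0.06 SE, adjusted p = 0.00053), with 25.1 to 81.9 CPM in posterior barcodes, against 17.9 to 46.1 CPM in anterior barcodes. The second co-receptor, ihog, rose by 0.27 with all barcodes (adjusted p = 0.014) but not without the marked ones (0.15, adjusted p = 0.15). The signal transducer smo did not pass the test, at 4.19 to 14.8 CPM in posterior and 5.05 to 13 CPM in anterior barcodes (log2 fold change 0.03 ± 0.08 SE). Of 8 transduction genes only sgg, a kinase, passed, lower with all barcodes and not called without the marked ones.

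Wnt ligands differed between the compartments in opposite directions. Of 20 genes of the Wnt list tested, 6 rose and 3 fell in posterior barcodes (5 and 2 without the marked barcodes), with a median of 0.12. The 6 were Wnt2, Wnt5, fz2, nkd, H15 and mid, of which H15 and mid are also counted in the dorsoventral list below. Other lists share members too, such as Fas3 and Nrg, so the counts of different lists are not separate. Wnt6 had 8.23, 7.0, 4.91, 2.66, 2.20 and 3.52 CPM in posterior barcodes, against 33.1, 31.9, 25.2, 23.0, 16.4 and 12.0 CPM in anterior barcodes. It fell by 2.40 on the log2 scale (SE 0.15) with no overlap of the ranges. Wnt2 (FBgn0004360, 2R:9494166-9503188) had 81.0, 82.7, 81.5, 78.1, 118 and 34.7 CPM in posterior barcodes, against 36.8, 37.2, 41.7, 40.3, 51.6 and 19.0 CPM in anterior barcodes. Its level was near 2-fold higher in each library, including the 36 h library where both gates were lowest (log2 fold change 1.04 ± 0.05 SE). The genes wg and Wnt6 lie 17448 bases apart on 2L, and Wnt4 lies 29987 bases from wg on its other side; the positions were looked up after the values were seen. Wnt4 fell by 0.75 with all barcodes (adjusted p = 0.019), but its log2 fold change was −0.13 without the marked ones (adjusted p = 0.71). The receptor gene fz2 and the feedback inhibitor nkd were slightly higher, by 0.17 and 0.32; fz2 passed in 9 of 17 alternative analyses and nkd in 16.

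**Figure D3:**
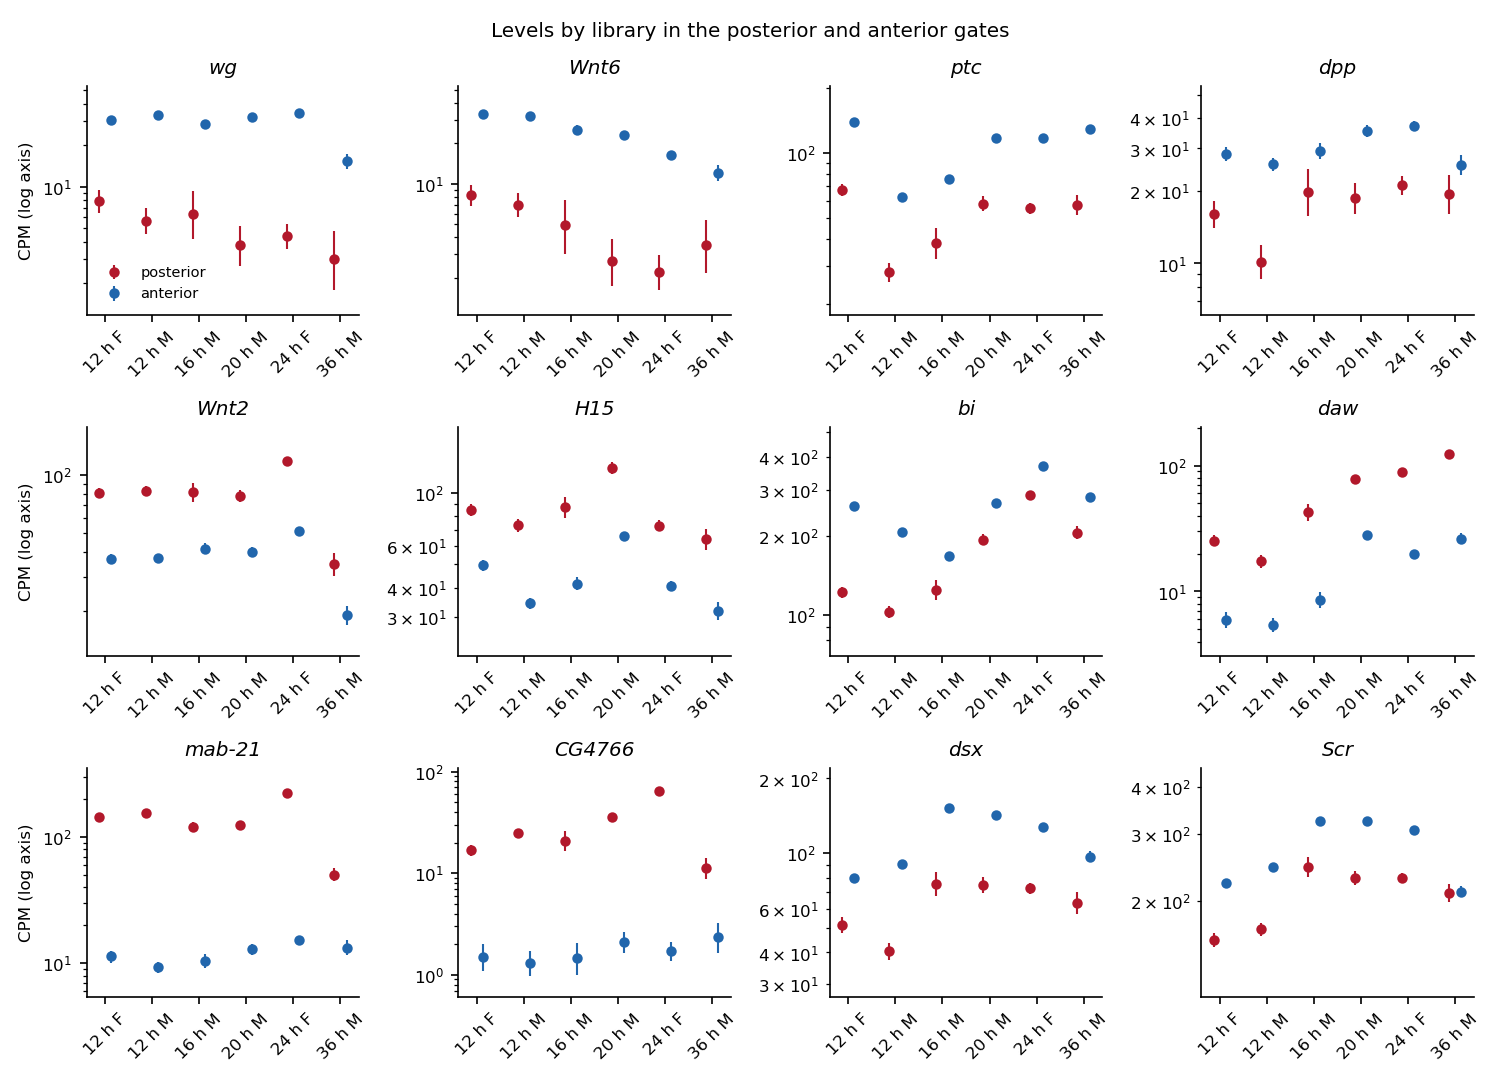
CPM (log axis) of 12 genes by library (F female, M male) in posterior and anterior barcodes; bars are exact Poisson 95% intervals, which cover counting error only. The ranges of wg, Wnt6, mab-21, CG4766, dpp and dsx do not overlap between the gates, whereas Scr has 209 CPM in posterior and 211 CPM in anterior barcodes at 36 h.

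Of 8 dorsoventral genes tested, 4 rose and 1 fell, with a median of 0.57. The T-box genes H15 and mid, which specify ventral leg identity, both rose. H15 had 84.8, 72.9, 86.9, 127, 72.9 and 63.7 CPM in posterior barcodes, against 49.5, 34.3, 41.5, 65.8, 40.8 and 31.8 CPM in anterior barcodes (log2 fold change 0.93 ± 0.05 SE, adjusted p = 3.1e-05). It was higher in each library, although the ranges met at 63.7 and 65.8 CPM. For mid the posterior range was 56.9 to 93.8 CPM and the anterior one 34.0 to 50.7 CPM (0.75 ± 0.05 SE). The T-box gene bi, a dorsal target of Dpp, fell by 0.66 (SE 0.11, adjusted p = 0.0056), with 122, 103, 125, 194, 288 and 206 CPM in posterior barcodes, against 260, 208, 168, 268, 370 and 282 CPM in anterior barcodes. The other 2 that rose, Doc1 and Doc3, are T-box genes of the dorsal side and had at most 3.70 CPM, and the ventral ligand wg fell, as given above.

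Shares of barcodes gave the same order for H15. For these shares the gated barcodes were thinned to 2000 UMIs, and those with fewer were left out. An H15 UMI was then seen in 13.3%, 12.0%, 13.9%, 19.5%, 11% and 11.7% of posterior barcodes, against 7.93%, 6.54%, 7.38%, 10.8%, 7.13% and 6.89% of anterior barcodes. For bi the thinned shares were 19.8%, 15.5%, 13.6%, 19.7%, 29.4% and 22.2% of posterior barcodes, against 26.8%, 22.5%, 18.7%, 22.8%, 29.1% and 25.4% of anterior barcodes. The posterior share of H15 was the higher one in 6 of 6 libraries, and that of bi was the lower one in each library other than the 24 h female library. UMIs of both genes were seen within the gate: at 12 h in females, 407 of 1192 posterior barcodes had bi UMIs only, 252 had H15 UMIs only and 142 had both.

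Of 21 Dpp pathway genes tested, 3 rose and 2 fell with all barcodes, with a median of 0.07. Of all genes tested, 5.02% rose and 7.57% fell. The type I receptor tkv rose by 0.52 (SE 0.06, adjusted p = 0.0005), with 95.3 to 164 CPM in posterior and 72.0 to 94.8 CPM in anterior barcodes, and kept its call in all 17 alternatives. The ligand gbb and the transducer Mad lost theirs without the marked barcodes. Daw and Fs, an activin-type ligand and a follistatin that binds such ligands, were picked by rank rather than from this list. Both were higher in the posterior gate. daw had 25.3, 17.3, 42.7, 77.8, 89.3 and 123 CPM in posterior barcodes, against 5.95, 5.45, 8.62, 27.9, 19.7 and 26.3 CPM in anterior barcodes. It was several times higher in every library, while levels in both gates were lowest at 12 h (log2 fold change 1.97 ± 0.11 SE, adjusted p = 4e-05). Fs had 10.3 to 49.6 CPM in posterior barcodes, against 1.79 to 42.1 CPM in anterior barcodes (1.31 ± 0.26 SE, adjusted p = 0.013).

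Among the genes called higher in all 6 libraries with at least 200 UMIs, CG4766 and mab-21 had the largest rise, and both were called in all 17 alternatives. mab-21 (FBgn0029003, X:6008183-6013181) had 144, 155, 121, 126, 223 and 50.4 CPM in posterior barcodes, against 11.3, 9.28, 10.5, 12.9, 15.2 and 13.3 CPM in anterior barcodes (log2 fold change 3.43 ± 0.24 SE, adjusted p = 7e-05). CG4766 (FBgn0027546, X:5997508-6000797) had 16.8, 24.6, 20.9, 35.5, 64.0 and 11.2 CPM in posterior barcodes, against 1.51, 1.31, 1.45, 2.09, 1.70 and 2.33 CPM in anterior barcodes (4.04 ± 0.31 SE, adjusted p = 8.7e-05). For both, the lowest posterior value exceeded the highest anterior one, and the 24 h female library was highest and the 36 h male library lowest in the posterior gate. The pair are neighbours on X, 7385 bases apart, as was looked up after the values were seen. The 1 gene annotated between them, lncRNA:CR44498, was also higher, with 0.670 to 3.11 CPM in posterior and 0.115 to 0.274 CPM in anterior barcodes (3.21 ± 0.37 SE, adjusted p = 0.00076). How reads past the ends of these genes were counted is not stated in the labels.

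The other genes among the 15 largest rises held a homeodomain gene, 3 cuticle protein genes and 7 genes known by number. The homeodomain gene al, which patterns the distal leg, had 4.21 to 20.9 CPM in posterior barcodes, against 1.15 to 5.18 CPM in anterior barcodes (1.80 ± 0.11 SE). Genes of cuticle protein families were TwdlE (1.86 ± 0.29 SE), Cpr49Ae (1.60 ± 0.24 SE) and Cpr12A (1.25 ± 0.26 SE). Cpr49Ae had 9.55, 5.13, 78.8, 800, 710 and 505 CPM in posterior barcodes, against 1.03, 0.920, 36.1, 245, 195 and 300 CPM in anterior barcodes. It was low at 12 h and high from 20 h on in both gates. Cpr12A lost its call without the 12 h female library and when barcodes with a UMI of a wider marker set (sens, ase, pros, Sox15, sv, nompA, ham, cato, sr, NimC1, nSyb, moody or Mef2) were left out. The remaining genes, CG9452, CG43131, CG11029, CG6431, CG6055, CG13064 and CG34221, had log2 fold changes of 1.26 to 2.25. All of them were higher in 6 of 6 libraries, and CG34221 lost its call without the 12 h female, 20 h male or 24 h female library.

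Among the genes lowest in posterior barcodes, those whose difference also held without the marked barcodes were Ccp84Ad, CG4962, Pburs, CG43336, unc-4 and Dr. Ccp84Ad (FBgn0004780, 3R:6692732-6693527), a cuticle protein gene, had 13, 12.8, 0.982, 0.102, 0 and 0 CPM in posterior barcodes, against 557, 475, 52.1, 4.58, 3.97 and 0.505 CPM in anterior barcodes (log2 fold change −5.40 ± 0.13 SE, adjusted p = 1.4e-07). The gene was high only in the early anterior barcodes, and the ratio was of like size at 12, 16 and 20 h, the ages with counts in both gates. At 16 h the posterior level rested on 2 UMIs in barcodes with 2 posterior genes and 2 in those with 3. At 20 h it rested on 1 and 0 UMIs, so the ratios at these ages are uncertain. CG4962 had 0.349, 2.01, 7.36, 35.0, 1.91 and 106 CPM in posterior barcodes, against 7.49, 39.5, 346, 428, 51.3 and 721 CPM in anterior barcodes (−3.93 ± 0.32 SE). In both gates it was lowest in the 12 h females and highest in the 36 h males. Pburs, a subunit of the hormone bursicon, had at most 1.47 CPM in posterior barcodes, against 1.45 to 33.7 CPM in anterior barcodes (−3.86 ± 0.30 SE). The homeodomain gene unc-4 had at most 0.982 CPM in posterior barcodes, against 1.01 to 8.76 CPM in anterior barcodes (−3.55 ± 0.27 SE), and the homeodomain gene Dr at most 3.76 CPM, against 2.84 to 23.1 CPM (−3.38 ± 0.33 SE).

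The other 9 of the 15 lowest genes, CG42792, Sid, CG4408, CG14642, CG32032, NimC1, asRNA:CR44095, CG32407 and CG10764, were too low to be tested once the marked barcodes were left out. One of them, NimC1, is a phagocytosis receptor of hemocytes and one of the markers used for the removal. It had at most 0.574 CPM in posterior barcodes, against 1.27 to 5.85 CPM in anterior barcodes. NimC1 is also among the 6 hemocyte markers summed above, so its difference and that of the sum are not separate observations. CG42792 rested largely on 102 CPM in anterior barcodes of the 12 h male library, against at most 5.68 CPM in the anterior barcodes of the others.

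Of 11 sex-differentiation and Hox genes tested, dsx, Scr and Antp fell in the posterior gate. dsx (FBgn0000504, 3R:7924323-7967408) had 51.7, 40.4, 75.3, 74.5, 72.5 and 63.5 CPM in posterior barcodes, against 79.7, 90.8, 153, 143, 128 and 97.1 CPM in anterior barcodes. The highest posterior value lay below the lowest anterior one, and dsx fell by 0.88 on the log2 scale (SE 0.08, adjusted p = 0.00019), or 1.01 without the marked barcodes. A dsx UMI was seen in 32.7% to 49.1% of posterior barcodes and 41.4% to 62.3% of anterior barcodes, and in 11.2% to 29.8% of hemocyte barcodes, so the posterior share stood above the background in each library. Scr (FBgn0003339) had 157, 168, 245, 230, 230 and 209 CPM in posterior barcodes, against 223, 245, 325, 325, 308 and 211 CPM in anterior barcodes. It was lower in 6 of 6 libraries, by next to nothing at 36 h (−0.42 ± 0.07 SE, adjusted p = 0.0047). Antp, the Hox gene that specifies the second thoracic segment, had 3.16 to 8.88 CPM, against 7.85 to 12.6 CPM (−0.74 ± 0.13 SE). The 1 gene of the list that rose, tra2, lost its call in most of the alternatives, and the list median was 0.07.

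The reporters driven by dsx-GAL4 were also lower in the posterior gate. In the 4 libraries that carry it, mCherry had 6.27, 9.22, 30.0 and 36.7 CPM in posterior barcodes at 12 h female, 12 h male, 20 h male and 36 h male, against 197, 277, 300 and 303 CPM in anterior barcodes. The log2 fold change was −4.00 ± 0.37 (SE, adjusted p = 0.00086). GFP, carried only by the 16 h library, had 7.85 CPM in posterior barcodes and 80.4 CPM in anterior barcodes. The driver transcript GAL4 had 1.52 to 4.42 CPM in posterior barcodes, against 3.11 to 7.43 CPM in anterior barcodes, in the 5 libraries with the driver, from 12 to 26 posterior UMIs per library (−1.08 ± 0.14 SE, adjusted p = 0.0025). The 24 h female library had no UMI of GAL4, mCherry or GFP in either gate, as its genotype has none.

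Proximodistal genes differed modestly. Of 21 tested, 6 rose and 2 fell (5 and 1 without the marked barcodes). Dll, the selector of the distal leg, had 262 to 628 CPM in posterior barcodes, against 214 to 449 CPM in anterior barcodes (0.34 ± 0.05 SE), and ss, a tarsal regulator, 50.4 to 94.2 CPM, against 31.1 to 64.8 CPM (0.52 ± 0.05 SE). The tarsal zinc finger gene rn had 1.01 to 7.89 CPM in posterior barcodes, against 7.32 to 12.4 CPM in anterior barcodes (−0.97 ± 0.20 SE). dysf, a regulator of tarsal joints, rose by 0.73 (SE 0.12), a call kept in 14 of 17 alternatives. The calls of ap and hth were each lost in several.

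Of 27 genes of cell affinity and adhesion, 11 rose and 2 fell with all barcodes, and 4 rose without the marked ones. These 4 were trn and caps, leucine-rich repeat proteins of the cell surface, the teneurin Ten-a and the guidance ligand sli. trn had 301, 204, 209, 289, 277 and 570 CPM in posterior barcodes, against 185, 92.2, 97.2, 175, 177 and 427 CPM in anterior barcodes (0.77 ± 0.09 SE, adjusted p = 0.00058). It was higher in each library, with the 36 h library highest in both gates. Ten-a had 200 to 537 CPM, against 126 to 343 CPM (0.44 ± 0.05 SE), sli 37.1 to 105 CPM, against 25.9 to 69.1 CPM (0.42 ± 0.05 SE), and caps 57.8 to 167 CPM, against 37.9 to 155 CPM (0.31 ± 0.06 SE).

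Other lists gave few calls or calls that depended on the marked barcodes. Their counts stand beside shares over all genes of 5.02% higher and 7.57% lower, and of 2.17% and 3.15% without the marked barcodes. Of 17 Notch genes 4 rose with all barcodes, N, Ser, fng and E(spl)mbeta-HLH, of which the last also passed without the marked ones, where E(spl)m7-HLH and E(spl)malpha-BFM rose as well; none fell in either fit. Of 13 EGFR genes the receptor Egfr rose with all barcodes only, and the inhibitor sty fell only without the marked ones. Of 20 cell cycle genes 4 rose with all barcodes, with a median of 0.05, and none passed without the marked ones. Of 13 ecdysone response genes, 3 rose and 2 fell, and without the marked barcodes 1 rose. Of 12 genes of the apical matrix 2 rose, and without the marked barcodes 1 fell. From the Osiris family, transmembrane proteins of cuticle-secreting epithelia, 9 genes were tested and Osi5 and Osi7 fell; Osi7 had 4.81 to 50.4 CPM in posterior barcodes, against 13.2 to 95.5 CPM in anterior barcodes (−1.33 ± 0.16 SE). Of 8 epithelial genes 5 rose, and the transcription factor grh was the one that also passed without the marked barcodes (0.27 ± 0.03 SE). None of 8 sensory organ genes and none of 3 tendon genes passed with all barcodes, whereas sv and nompA of the sensory organ list fell without the marked ones. Of 5 neuronal genes brp rose, of 3 tracheal genes trh rose, of 5 muscle genes sls rose and Him and zfh1 fell, of 4 glial genes moody fell, and of 4 hemocyte genes NimC1, Pxn and srp fell.

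Whether the compartment difference changed with age was tested as a compartment by age term over the 6 libraries. The log2 posterior to anterior ratio became higher with age for 21 of 8388 genes (0.25%) and lower for 12 (0.143%), whatever its sign, and 26 of these 33 were among the 77 called without the marked barcodes. The count of 33 became 97 without the 24 h female library, 11 without the 12 h female or the 16 h male library and 5 without the 12 h male library. CG9747 was the one named gene called in all 12 alternatives. It had 135, 209, 106, 56.0, 84.1 and 4.02 CPM in posterior barcodes, against 12.2, 15.7, 13.3, 20.3, 61.5 and 6.81 CPM in anterior barcodes. The ratio was high at 12 and 16 h, smaller at 20 and 24 h and turned round at 36 h, a log2 change of −5.53 ± 0.47 (SE) over 24 h (adjusted p = 0.0075). CG13857 was lower in posterior barcodes throughout, at 5.02, 5.96, 48.3, 105, 126 and 25.1 CPM, against 120, 286, 491, 664, 837 and 36.9 CPM in anterior barcodes, with a gap that narrowed with age (4.27 over 24 h, adjusted p = 0.024). The call of CG13857 was lost without the 12 h female, the 16 h male or the 36 h male library.

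Some age calls rested on the 36 h library. TwdlT, a cuticle protein gene of the Tweedle family, had 0.558, 0.624, 1.23, 0.716, 0.574 and 47.9 CPM in posterior barcodes, against 1.44, 1.43, 1.58, 1.66, 1.09 and 1.45 CPM in anterior barcodes (6.68 over 24 h). CG17127 had 2.86, 4.37, 1.47, 1.02, 0.765 and 80.1 CPM, against 6.29, 9.76, 2.46, 0.860, 0.750 and 8.07 CPM (4.46). The tendon regulator sr had 7.39, 3.40, 3.19, 10.7, 3.44 and 78.4 CPM, against 13.8, 12.2, 11, 17.4, 3.99 and 38.2 CPM (2.46). In all of these the 36 h male library alone had a posterior level well above the anterior one, and the calls were lost without it. The tendon gene slow (2.42) and the Slit receptor robo2 (1.06) lost theirs likewise. All but CG17127 lost the call also without the 12 h male or the 16 h male library.

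Summed levels of 3 tendon markers were 125 CPM in posterior and 63.2 CPM in anterior barcodes at 36 h, and those of 5 neuronal markers 168 and 103 CPM. The part of such cells in the 36 h calls was not tested. In the other direction, magu, a secreted regulator of the Dpp gradient, had 7.18, 8.66, 8.83, 3.99, 3.16 and 1.68 CPM in posterior barcodes, against 2.91, 4.07, 5.41, 3.21, 3.83 and 3.78 CPM in anterior barcodes (−2.49). The call of magu was lost in 7 of 12 alternatives, among them the one without the 36 h library. Of all list members tested, those called by age were sr, slow and robo2 upwards and magu and Osi3 downwards. For members not called, this does not show that the ratio stayed the same.

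**Figure D4:**
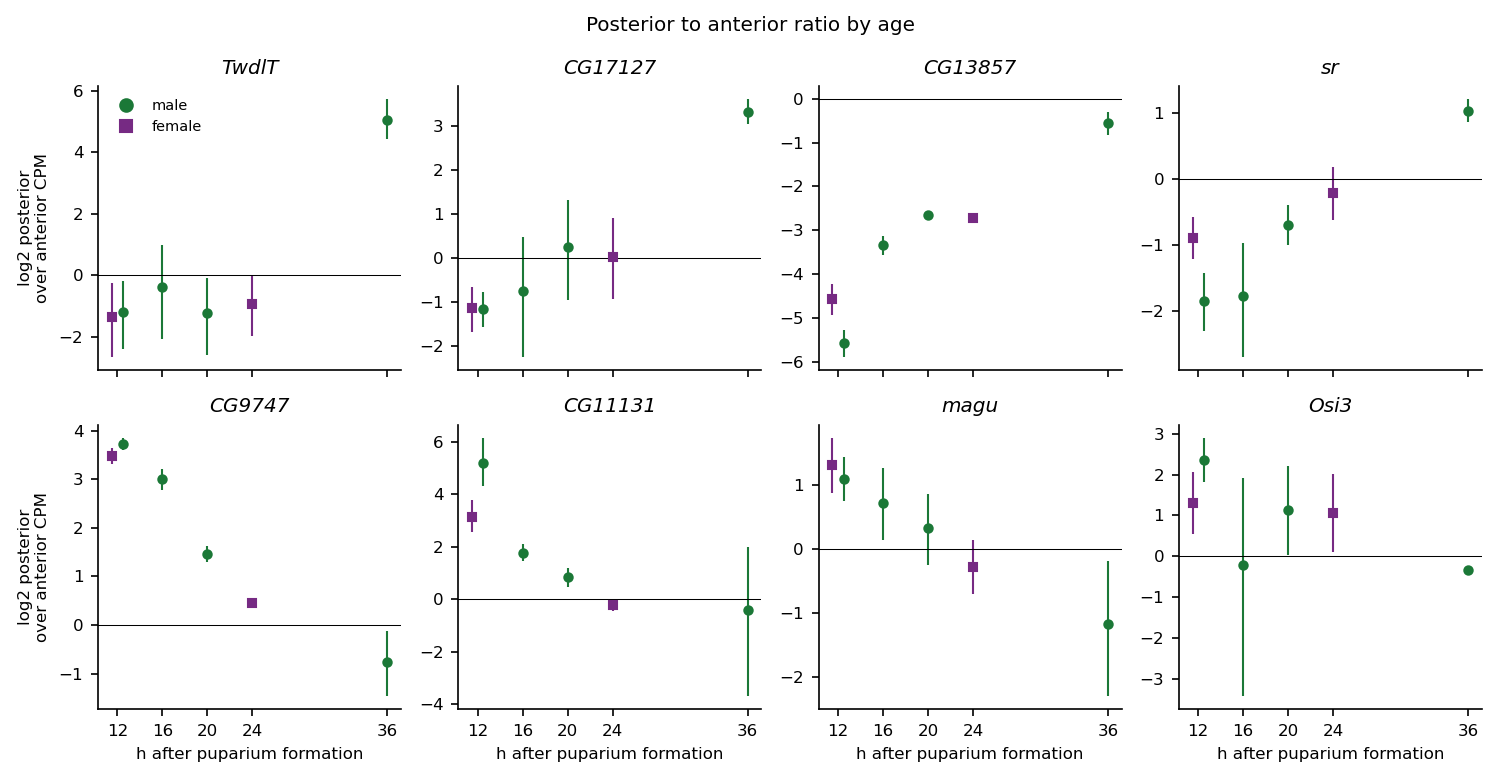
Log2 ratio of posterior to anterior CPM against age for 8 genes called in the compartment by age test; bars are exact conditional 95% intervals, which cover counting error only, and the pair of 12 h libraries is drawn side by side. The ratio of CG9747 declines over the series, and those of TwdlT, CG17127 and sr are highest at 36 h.

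A compartment by sex term called no gene in edgeR (0.0% of 8388), with 144 genes at an unadjusted p under 0.05, and none in DESeq2. Levels within the posterior gate are therefore given as a description, with counting intervals only. The male dosage compensation RNAs marked the sexes: lncRNA:roX2 stood at 473 CPM in posterior barcodes of 12 h males, against 0.349 CPM for 12 h females (log2 ratio 10.41, interval 9.18 to 12.03), and lncRNA:roX1 688 and 9.34 CPM. CG12998 had 745 and 138 CPM, Obp49a 95.8 and 28.7 CPM, and CG34331 25.8 and 8.02 CPM in 12 h male and 12 h female posterior barcodes. Lower in the 12 h males were the antimicrobial peptide gene Dro, at 4.92 CPM in males and 106 CPM in females, and its fellow AttA, at 0.901 and 12.9 CPM. The Hox gene Abd-B had 1.39 CPM in males and 29.6 CPM in females, the potassium channel gene Elk 0.346 and 9.48 CPM and the muscle gene Mf 0.208 and 7.32 CPM. Dro was also high, at 115 CPM, in posterior barcodes of the 20 h males, so it did not follow sex across the series. Nor did Abd-B, at 9.32, 9.21 and 6.70 CPM in 16, 20 and 36 h males and 3.78 CPM in 24 h females. Elk had 28.0 CPM in 36 h males and 16.3 CPM in 24 h females, Mf 13.5 CPM in 20 h males and 4.26 CPM in 24 h females. The 12 h differences of these genes were also seen in the anterior gate. That of Obp49a was smaller there (log2 ratio 0.38, against 1.74 in the posterior gate). In anterior barcodes of 12 h males and 12 h females, Abd-B had 1.09 and 29.2 CPM, Dro 4.97 and 193 CPM and CG12998 2036 and 519 CPM. The level of dsx was 40.4 CPM in 12 h male and 51.7 CPM in 12 h female posterior barcodes (log2 ratio −0.35, interval −0.51 to −0.20), against 90.8 and 79.7 CPM in the anterior ones.

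The posterior gate also differed between the 36 h and the 12 h males. Of 7745 genes with at least 20 UMIs, 964 were at least 4-fold higher (12.4%) and 1503 at least 4-fold lower (19.4%) at 36 h, in 1 library each and so with no test of age; the median log2 ratio of these genes was −0.45. Genes of the apical matrix and cell protrusions were higher at 36 h. Of 12, 10 were past 4-fold, with a median log2 ratio of 3.69 in posterior and 4.08 in anterior barcodes. The zona pellucida domain gene dyl had 70.7 CPM at 36 h and 1.52 CPM at 12 h in male posterior barcodes (log2 ratio 5.54, interval 4.92 to 6.22). Its relatives m, at 102 and 0.693 CPM, and tyn, at 2891 and 119 CPM, were higher as well.

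Osiris genes showed the largest list median. Of 13 with enough UMIs, 11 were past 4-fold higher and none lower, with a median of 7.16 in posterior and 5.85 in anterior barcodes. Osi21 had 1954 CPM at 36 h in posterior barcodes and no UMI in those of the 5 younger libraries, at least 9400-fold above the 12 h male library when its 0 is set to 3 counts. Osi8 had 1395 CPM at 36 h and no UMI at 12 h, at least 6709-fold. Cpr56F, another cuticle protein gene, had 967 CPM at 36 h and no UMI in the 12 h males, at least 4654-fold, and stood at 146 CPM in the anterior barcodes of 36 h. Cpr49Aa (151 CPM), CG7214 (127 CPM) and CG13042 (414 CPM) were the other leading genes. The transcription factor gene fru had 1686 CPM at 36 h and 3.19 CPM at 12 h in posterior barcodes, with 1722 and 3.92 CPM in anterior ones; it was chosen after its values were seen.

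Genes lower at 36 h were led by CG15213, at 6.70 CPM at 36 h and 28078 CPM at 12 h, Cpr72Ea, at 11.2 and 20325 CPM, CG1850, at 3.52 and 12366 CPM, and CG11852, at 0.670 and 8574 CPM. CG8736 had no UMI at 36 h and 491 CPM at 12 h, at least 978-fold lower, and Cks30A, a subunit of the cyclin-dependent kinase complex, none and 253 CPM, at least 504-fold lower. Of 20 cell cycle genes, 12 were past 4-fold lower and none higher, with a median log2 ratio of −3.64 in posterior and −3.34 in anterior barcodes. PCNA, the sliding clamp of DNA replication, had 260, 429, 146, 25.6, 30.4 and 2.51 CPM in posterior barcodes of the 6 libraries, and the mitotic kinase gene aurB 164, 278, 85.2, 4.81, 9.18 and 0.335 CPM. Both were high at 12 h, intermediate at 16 h and low from 20 h on. At 36 h all 3 tendon genes and all 5 neuronal markers with enough UMIs were past 4-fold higher, and the tendon median was 3.26 in posterior and 1.17 in anterior barcodes.

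**Figure D5:**
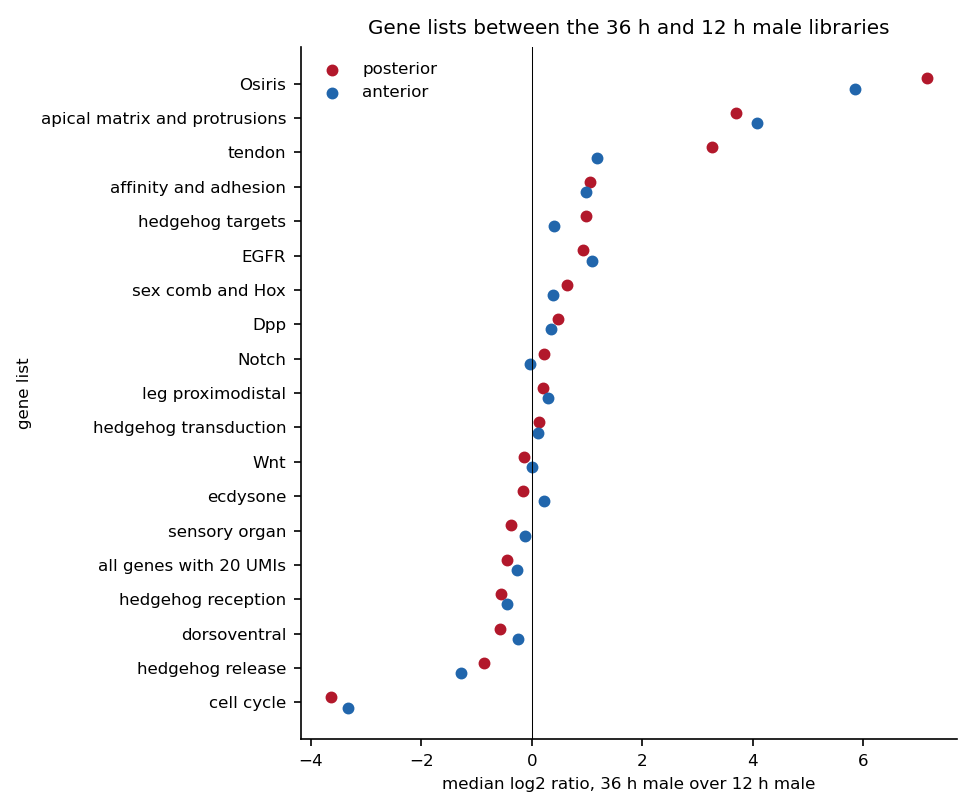
Median log2 ratio of 36 h male over 12 h male CPM for the genes of each list with at least 20 UMIs, in posterior and anterior barcodes, 1 library per age. The Osiris list stands highest, at 7.16 in posterior and 5.85 in anterior barcodes, and the cell cycle list lowest, at −3.64 and −3.34.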

How the data were processed

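Gene by barcode UMI counts were deposited by the authors for 6 libraries of a 10x Genomics 3' kit (Chromium v3.1, per the labels); counting used Cell Ranger 7.0.0 and BDGP6, per the submitters' processing notes. Deposited tables held 12000 barcodes each (13998 for 24 h females) and 16496 features, so they had been filtered before deposit; kept totals were 67454195 to 187111196 UMIs. Doublets were not removed from the main values; Scrublet (scanpy 1.11.5) marked 901 to 1552 per library, and leaving them out was an alternative. Counts were summed per gate and library and tested with edgeR 4.0.16 (R 4.3.3; TMM factors, filterByExpr, quasi-likelihood, gate genes left out, library as block, Benjamini-Hochberg adjustment); DESeq2 1.42.0 was an alternative. The scripts were tested on simulated counts. Gate members, gene lists and tests were chosen with earlier results of these data known. Named by rule were list members, the 15 genes each way with the largest fold change among those called, of 1 sign in all 6 libraries and with at least 200 UMIs, the 5 largest age terms each way, and the 6 or 5 largest ratios each way between libraries. Replicates are libraries of differing age, sex and genotype; where 1 library stands per group, exact Poisson or binomial 95% intervals cover counting error only. A UMI count of a 3' kit is not scaled by gene length, so levels were not compared between genes. Gene positions were taken from the BDGP6 annotation.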

Additional observations from a re-analysis of the deposited data

Results flagged for a closer look

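The compartment by age test called 33 genes, whose posterior to anterior ratio differed between ages (edgeR, adjusted p under 0.05). The terms, as log2 change of that ratio over 24 h, were 6.68 for TwdlT, 5.16 for CG14191, 4.61 for lncRNA:CR44638, 4.46 for CG17127, 4.27 for CG13857, 2.46 for sr, 2.42 for slow and 1.06 for robo2. They were −7.50 for CG11131, −5.53 for CG9747, −2.49 for magu, −2.22 for Osi3 and −1.52 for CG31075. CG14191 had 177 CPM in posterior and 34.7 CPM in anterior barcodes at 36 h, and 1.60 and 21.2 CPM in the 12 h female library. lncRNA:CR44638 had 31.8 and 10.0 CPM at 36 h. CG11131 had 8.78, 10.5, 30.7, 10.5, 12.4 and 0.335 CPM in posterior barcodes, against 0.992, 0.291, 8.97, 5.96, 14.6 and 0.442 CPM in anterior barcodes. Osi3 had 2.44 and 5.82 CPM in posterior barcodes of the 12 h females and 12 h males, against 0.992 and 1.14 CPM in anterior barcodes, and 360 CPM in posterior barcodes at 36 h, against 456 CPM in anterior barcodes. The calls of CG14191, lncRNA:CR44638, CG13857, magu and Osi3 were lost without the 36 h library.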

How the results depend on the processing

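Of 81 named genes of the compartment comparison, 53 kept direction and call in every alternative run for them, and 1 reversed: fz2 had a log2 fold change of −0.11 once barcodes with a UMI of the wider marker set were left out. The higher and lower counts, 421 and 635 as reported, were 249 higher with depth-matched barcodes, 190 higher and 362 lower when thinned to 2000 UMIs, 217 higher with all 3 of en, inv and hh required, 121 and 250 without the wider set of markers, 175 and 254 without hemocyte, muscle and glia markers, and 253 and 956 with no low count filter. The wider set left 202, 270, 339, 318, 551 and 266 posterior barcodes in the libraries from youngest to oldest. The set of hemocyte, muscle and glia markers left 930, 1003, 671, 760, 1638 and 564, so the counts for both sets rest on fewer barcodes. Leaving out each library in turn gave 236 to 522 higher and 457 to 745 lower genes. The 33 age calls became 12 with depth-matched barcodes, 54 when thinned, 77 without hemocyte, muscle and glia markers, 112 with DESeq2, 145 with no low count filter and 5 to 97 when each library was left out, lowest without the 12 h male library and highest without the 24 h female library. Of the 13 age genes named, CG9747 alone kept its call throughout. The sex test gave 1 call with no low count filter and 0 to 1 when each library was left out. The cause of these shifts was not tested. Posterior and anterior sums were paired by library in every fit, with the library as the block. Of the calls, 39.9% were higher with TMM factors, 48.4% with RLE factors and 46.1% with DESeq2. Of the ratios between libraries, 26 of 42 (36 h over 12 h) and 24 of 40 (12 h male over female) stayed within their interval when thinned.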
